A study of Mus musculus with 14 samples.

Results

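The AP-1 transcription factor family was followed here through 10 genes, taken by symbol from the 24537 gene rows of each of 2 expression tables: Fos, Fosb, Fosl1 and Fosl2 (the FOS class), Jun, Junb and Jund (the JUN class), Batf and Batf3 (the BATF class), and Atf3. All 10 had 1 row in both tables. Both tables came from mice after hair depilation, which pushes resting follicles into growth, and the series' title names glucocorticoid signalling in skin regulatory T (Treg) cells and follicle stem cell activation as its subject. One table holds Treg cells of the skin, 1 day after depilation, and the other holds hair follicle stem cells (HFSC), sorted as CD34+ITGA6high cells, 4 days after depilation. In each, cells from wild-type mice (GR WT) were compared with cells from Foxp3YFP-Cre GRfl/fl mice (GR KO), in which a Cre driven from the Treg gene Foxp3 acts on a floxed glucocorticoid receptor gene. There were 3 GR WT and 5 GR KO Treg libraries, and 3 GR WT and 3 GR KO HFSC libraries. Foxp3 drives the Cre, so the HFSC from GR KO mice carry the floxed alleles but are not its intended target. The labels do not say whether the wild-type mice carried the Cre, and every group was depilated, so no resting skin is among the samples. Nor do they give the age or sex of the mice, or say that libraries of a group came from separate mice, so the p-values measure only the spread between these samples, which may be technical.

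AP-1 factors bind DNA as pairs of basic leucine zipper proteins: JUN proteins pair with one another or with a FOS, BATF or ATF partner, while FOS proteins need a partner of another class. Fos, Fosb, Jun, Junb and Atf3 are immediate early genes, whose RNA appears within minutes of growth factor, antigen receptor or stress signals, including those of tissue digestion, and decays quickly. BATF pairs with JUN proteins and IRF4 in T cells and is known for its part in tissue Treg cells, and the glucocorticoid receptor is known to bind to and repress AP-1 at some genes.

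The bases just upstream of the genes are shown for the 5 members whose promoter holds TGACG, the core of the cAMP response element, since this feature was shared across classes and cuts across the cell type each gene was highest in. Promoters from RefSeq (GRCm38.p6) were at hand for 9 members, and Fosl1 had no entry. TGACG, on either strand (CGTCA on the other), occurred in the 150 bases before the start of 5 of the 9 members, against 13.3% of 32851 promoters over the same window. Each sequence is written 5′ to 3′ along the gene's strand and ends at the base before the start, and capitals mark this core.

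Fos: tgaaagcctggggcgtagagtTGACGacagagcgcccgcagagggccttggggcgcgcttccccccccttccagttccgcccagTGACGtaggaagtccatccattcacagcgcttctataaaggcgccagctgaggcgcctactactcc
Fosb: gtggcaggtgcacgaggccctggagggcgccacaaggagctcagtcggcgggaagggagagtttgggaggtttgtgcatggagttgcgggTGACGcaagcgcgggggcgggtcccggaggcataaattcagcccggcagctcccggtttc
Junb: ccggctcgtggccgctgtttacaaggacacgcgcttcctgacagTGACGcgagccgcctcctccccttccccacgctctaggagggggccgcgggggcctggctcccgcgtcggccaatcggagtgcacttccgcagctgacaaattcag
Batf: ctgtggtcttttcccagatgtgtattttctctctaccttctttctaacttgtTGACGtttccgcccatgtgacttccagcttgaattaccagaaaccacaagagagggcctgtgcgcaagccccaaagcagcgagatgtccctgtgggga
Atf3: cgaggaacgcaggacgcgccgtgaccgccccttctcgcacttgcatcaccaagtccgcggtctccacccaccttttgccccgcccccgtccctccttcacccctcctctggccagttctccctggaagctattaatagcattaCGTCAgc

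These windows are chr12:85473740-85473889 on the plus strand for Fos, chr7:19310046-19310195 on the minus strand for Fosb, chr8:84978749-84978898 on the minus strand for Junb, chr12:85686570-85686719 on the plus strand for Batf, and chr1:191183334-191183483 on the minus strand for Atf3. Fos holds the core at 2 places, and Atf3 holds it on the opposite strand, within 7 bases of the start. The promoters of Fosl2, Jun, Jund and Batf3 had no TGACG in this window. For Fosl2, Jund, Batf3 and Atf3 the start used differs from the GENCODE vM21 gene start by more than the window. For Jund it was 70697739 here and 70698949 in GENCODE. Windows before those other starts were not searched. None of the 9 windows had the whole element TGACGTCA (1.36% of all promoters), the AP-1 site TGANTCA (4.24%), the glucocorticoid response element (AGAACA, 3 bases of any kind, then TGTTCT; 0.00609%) or a CArG box (0.916%), all searched on both strands. TGACG is a part of TGACGTCA. TATAAA was found in Fos among the members, against 7.57% of promoters. These are matches of letters in a short window, and distal elements were not searched.

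The genes lie on 7 chromosomes (mm10). Fos (chromosome 12, 85473901 to 85477270) and Batf (chromosome 12, 85686720 to 85709087) are separated by 209 kb, with Jdp2, a further zipper protein gene, between them. Atf3 (chromosome 1, 191170297 to 191183333) and Batf3 (chromosome 1, 191098414 to 191108943) are 61.4 kb apart. Junb and Jund share chromosome 8 but lie 14276 kb apart. In GENCODE vM21, Fosl1 overlaps Ccdc85b on the other strand, Jun overlaps the antisense gene Junos, and Jund overlaps the antisense gene Gm11175. On strand in counting, nothing is given in the sources used here, and values of these 3 members may include reads of those genes.

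Depth and cell identity set the frame for the members' values. From the deposited values, each Treg library held 9.17e+06 to 1.45e+07 tags and each HFSC library held 4.50e+06 to 7.99e+06 tags. Foxp3 stood at 227 ± 61.9 TPM (SD, n = 3) in GR WT and 171 ± 29.1 TPM (SD, n = 5) in GR KO Treg cells, and at 0 to 0.357 TPM in HFSC. Of 10 Treg markers tested in Treg cells, 6 had a negative and 4 a positive fold change, with a median of -0.10 (-0.04 over all genes). The limma test called 1 of them, Il2ra, which encodes the IL-2 receptor chain CD25, beside 1.51% of all genes. Il2ra was at 330 ± 10.95 TPM in GR KO and 485 ± 33.4 TPM in GR WT Treg cells (SD). Its log2 fold change was -0.55 (limma with Benjamini-Hochberg adjustment, adjusted p = 0.00575). Nr3c1, the floxed receptor gene, was at 211 ± 35.3 TPM in GR WT and 129.5 ± 27.3 TPM in GR KO Treg cells (SD), and at 41.6 ± 7.07 against 43.6 ± 6.89 TPM (SD, n = 3 each) in HFSC. On the first principal component of its table, GR WT replicate 1 of the HFSC stood apart (59.8 against -17.7 to -4.02), and GR WT replicate 3 of the Treg cells lay farthest from the others (52.1, where the other 7 ran from -24.5 to 22.9). Fold changes that rest on these libraries are given with and without them.

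Treg cells and HFSC carried different mixtures of AP-1 members. In GR WT Treg cells the order by TPM, which is scaled per transcript length, was Junb (1897 ± 179), Fos (697 ± 157), Jund (658 ± 123), Batf (536 ± 54.9), Fosb (258 ± 117), Fosl2 (236 ± 55.4), Atf3 (89.3 ± 33.9), Jun (78.3 ± 49.2), Fosl1 (1.70 ± 0.429) and Batf3 (0.611 ± 0.746; SD, n = 3). Junb stood clear of the next gene. The ranges of neighbours overlapped from Fos to Batf, between Fosb and Fosl2, between Atf3 and Jun, and between Fosl1 and Batf3.

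In GR WT HFSC the order was Fos (3039 ± 562), Jun (1667 ± 143), Junb (1345 ± 28.3), Fosb (1160 ± 87.2), Atf3 (1158 ± 24.5), Jund (496 ± 40.6), Fosl1 (89.99 ± 17.3), Fosl2 (70.1 ± 10.3), Batf3 (1.26 ± 0.797) and Batf (0.168 ± 0.291 TPM; SD, n = 3). Only Fosb and Atf3, and Fosl1 and Fosl2, had overlapping ranges with their neighbour in this order. Fos ranked 7th to 12th of all genes in the GR WT HFSC libraries, and 99th to 176th in the GR WT Treg libraries. Junb, whose protein partners FOS and BATF proteins alike, ranked 26th to 47th in GR WT Treg and 35th to 42nd in GR WT HFSC libraries.

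The members fell into 3 patterns across the cell types, given as levels of separately made tables and not tested, since cell type, day and table differ together and cannot be told apart. Of the immediate early genes, 4 were higher in GR WT HFSC than in GR WT Treg cells, by 4.36-fold for Fos, 4.50-fold for Fosb, 12.97-fold for Atf3 and 21.3-fold for Jun, while Junb was not. Fosl1, which encodes FRA1, was 53.0-fold higher there. Junb and Jund were 1.41-fold and 1.33-fold higher in GR WT Treg cells than in GR WT HFSC, and Fosl2, which encodes FRA2, was 3.37-fold higher. Batf was found in Treg cells, at 384 to 620 TPM over the 8 Treg libraries and at 0 to 0.914 TPM over the 6 HFSC libraries, where its highest library held 4 tags.

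**Figure D1:**
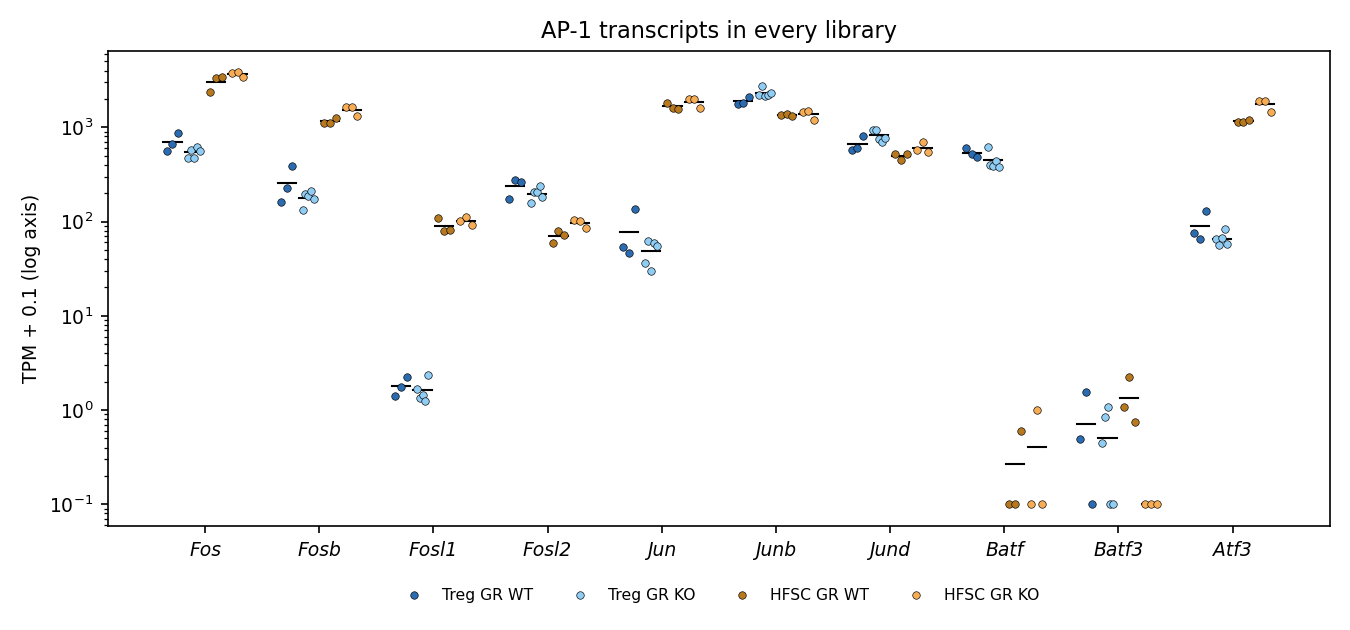
TPM + 0.1 on a log axis for each of the 10 AP-1 members, with 1 point per library, colours for the 4 groups, and short lines at the group means. Jun, Fosl1 and Atf3 sit far higher in HFSC, Batf sits at 384 to 620 TPM in Treg cells and at 0 to 0.914 TPM in HFSC, and the Treg and HFSC levels of Junb, and those of Jund, are within 1.41-fold in GR WT.

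Summed over the 10 genes, the family made up 0.598 to 0.797% of the TPM of the GR WT Treg libraries and 1.33 to 1.47% of the GR WT HFSC libraries. The JUN class gave 58.3 to 60.7% of the family's TPM in GR WT Treg cells and 36.1 to 43.4% in GR WT HFSC. Its make-up differed as well: Jun itself was 1.90 to 4.44% of the JUN class in GR WT Treg cells and 46.1 to 49.5% in GR WT HFSC. The ratio of FOS class to JUN class TPM was 0.369 to 0.500 in GR WT Treg libraries and 0.994 to 1.42 in GR WT HFSC libraries. In bulk samples such as these, fewer cells of a type and less RNA per cell cannot be told apart.

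The Treg comparison asks which AP-1 genes differ when Treg cells carry the floxed receptor with Foxp3-driven Cre. None of the 9 members tested passed at an adjusted p of 0.05 (limma on log2(TPM + 1), Benjamini-Hochberg over 11579 genes), where 1.51% of all genes did (0.199% higher and 1.31% lower in GR KO). Fos, Junb and Jund (3 of 9) had an unadjusted p under 0.05, a level that 14.1% of all genes reached, and limma's voom on recovered tags also called 0 members. Fold changes below are differences on the log2(TPM + 1) scale, GR KO minus GR WT. Of the 9, 7 were negative and 2 positive, with a median of -0.28 against -0.04 over all genes tested. In 1 of the 9 members, Junb, all GR KO libraries lay above all GR WT libraries, as they did in 3.42% of all genes, and in 0 they lay below, as in 5.1% of genes.

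In Treg cells the 3 JUN class genes differed in sign, with none past the test. Junb was at 1786, 1802 and 2103 TPM in the GR WT libraries and at 2222, 2747, 2155, 2180 and 2287 TPM in the GR KO libraries. The lowest GR KO library was just above the highest GR WT library, and GR KO replicate 2 stood above the rest. The log2 fold change was 0.29 (SE 0.10, 95% interval 0.06 to 0.52; limma with Benjamini-Hochberg adjustment, adjusted p = 0.247).

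Jund, a JUN gene that many cells express without a stimulus, was at 577, 598 and 800.2 TPM in GR WT and at 948, 947, 750.04, 706 and 776 TPM in GR KO libraries. GR WT replicate 3 lay among the GR KO values, and the other 2 GR WT libraries lay below all of them. GR KO minus GR WT gave a log2 fold change of 0.33 (SE 0.14, 95% interval 0.03 to 0.63; limma with Benjamini-Hochberg adjustment, adjusted p = 0.323). Without GR WT replicate 3 it was 0.48.

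Jun was at 53.5, 46.4 and 135 TPM in GR WT and at 36.4, 62.2, 30.1, 59.3 and 54.4 TPM in GR KO Treg libraries. The GR WT mean rested on replicate 3, and the other 2 GR WT libraries lay within the GR KO range. This amounted to a log2 fold change of -0.57 (SE 0.34, 95% interval -1.31 to 0.17; limma with Benjamini-Hochberg adjustment, adjusted p = 0.488). It was -0.09 without GR WT replicate 3 and -0.85 without GR WT replicate 2.

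Among the FOS class, Fos was at 557, 666 and 867 TPM in GR WT and at 475, 580, 478, 621 and 559 TPM in GR KO Treg libraries. All 5 GR KO libraries lay below the GR WT mean, but the lowest GR WT library fell inside the GR KO range. The log2 fold change was -0.34 (SE 0.14, 95% interval -0.66 to -0.03; limma with Benjamini-Hochberg adjustment, adjusted p = 0.323), and -0.17 without GR WT replicate 3.

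Fosb, a second early FOS gene, was at 160, 226 and 388 TPM in GR WT and at 133, 195, 187, 211 and 172 TPM in GR KO Treg libraries. Replicate 3 was again the highest GR WT library, well clear of all others. GR KO minus GR WT gave a log2 fold change of -0.44 (SE 0.24, 95% interval -0.97 to 0.09; limma with Benjamini-Hochberg adjustment, adjusted p = 0.448). It was -0.10 without that library and -0.73 without GR WT replicate 1.

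Fosl2 was at 173, 273 and 263 TPM in GR WT and at 158, 204, 206, 241 and 184 TPM in GR KO Treg libraries, with overlapping groups and a log2 fold change of -0.24 (SE 0.17; limma, Benjamini-Hochberg adjusted p = 0.564). Leaving out GR WT replicate 1 gave -0.45, and leaving out GR WT replicate 2 gave -0.12. Fosl1 stayed near the low filter, at 1.30 to 2.15 TPM in GR WT and 1.15 to 2.28 TPM in GR KO libraries. Its log2 fold change of -0.11 (SE 0.27; limma, Benjamini-Hochberg adjusted p = 0.901) became 0.011 without GR WT replicate 3 and -0.22 without GR WT replicate 1.

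Batf was at 597, 520.1 and 490.2 TPM in GR WT and at 620.4, 399, 388, 442 and 384 TPM in GR KO Treg libraries. Of the GR KO libraries, 4 of 5 lay below all GR WT libraries, while GR KO replicate 1 was the highest Treg library of all. This amounted to a log2 fold change of -0.28 (SE 0.15, 95% interval -0.62 to 0.05; limma with Benjamini-Hochberg adjustment, adjusted p = 0.440). Without GR KO replicate 1, a library picked from these same values, it was -0.41 (limma with Benjamini-Hochberg adjustment, adjusted p = 0.103). It was -0.20 without GR WT replicate 1. Batf3, known for its part in dendritic cells, did not pass the filter of a mean of 1 TPM and ran from 0 to 1.44 TPM in GR WT and from 0 to 0.966 TPM in GR KO libraries.

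Atf3, a stress-induced factor that often represses its targets, was at 75.2, 64.7 and 128 TPM in GR WT and at 64.8, 56.8, 67.6, 82.8 and 57.8 TPM in GR KO Treg libraries. Replicate 3 was the highest GR WT library here too, and the rest of the groups overlapped. The log2 fold change was -0.38 (SE 0.20, 95% interval -0.83 to 0.06; limma with Benjamini-Hochberg adjustment, adjusted p = 0.429). It was -0.09 without that library and -0.58 without GR WT replicate 2.

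**Figure D2:**
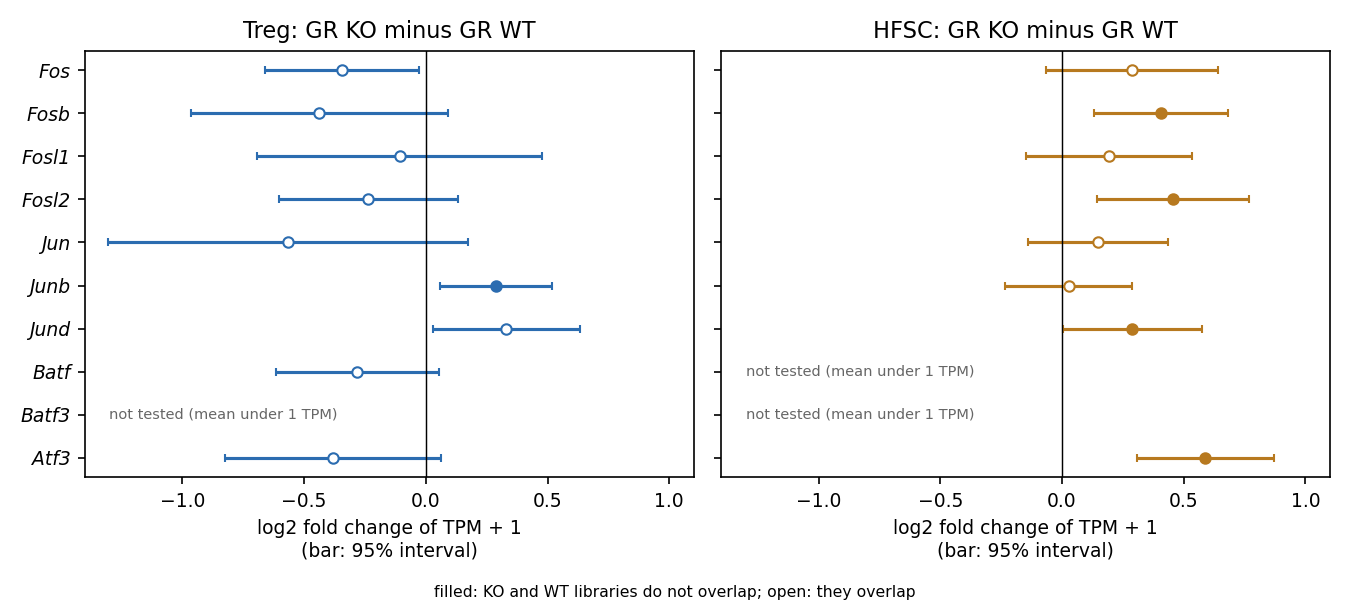
Log2 fold change of TPM + 1 (GR KO minus GR WT) of each tested member with its 95% interval from limma, in Treg cells on the left and HFSC on the right; filled points mark members whose groups do not overlap. In Treg cells 7 of 9 values lie below 0 and Junb and Jund above, and in HFSC all 8 lie above 0, from 0.03 for Junb to 0.59 for Atf3.

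The shares of the classes differed between the genotypes in the Treg libraries. The JUN class made up 58.3 to 60.7% of the family's TPM in the GR WT and 64.8 to 72.3% in the GR KO Treg libraries. The ratio of FOS class to JUN class TPM was 0.369 to 0.500 in GR WT and 0.239 to 0.365 in GR KO libraries. Neither range overlapped between genotypes. The summed family was 3979 to 5177 TPM in GR WT and 4264 to 5192 TPM in GR KO libraries, so the groups overlapped in the total. These shares are a description of chosen genes, with no test.

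**Figure D3:**
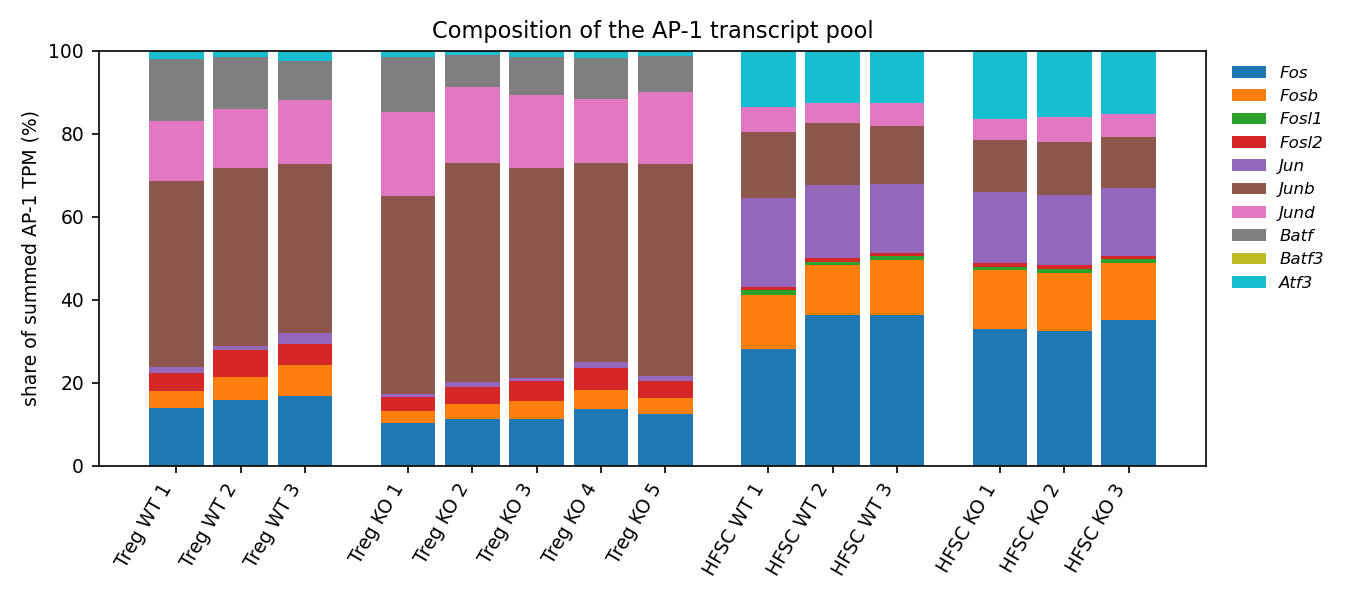
Share of the summed AP-1 TPM (percent) taken by each member, as stacked bars with 1 bar per library. The 3 JUN genes together hold 64.8 to 72.3% in GR KO and 58.3 to 60.7% in GR WT Treg libraries, and Atf3 holds 15.2 to 16.5% in GR KO and 12.5 to 13.5% in GR WT HFSC libraries.

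Transcripts of other cells moved with genotype in the Treg libraries. The median of 10 keratinocyte markers stood at 1.40 to 2.35% of its GR WT HFSC level in GR WT Treg libraries. In GR KO Treg libraries it stood at 0.0743 to 0.583%. By the limma test 8 of the 10 markers were lower in GR KO, as were 1.31% of all genes. None of the 10 was at 0 in a GR WT library, and at most 1 was at 0 in a GR KO library. At those percentages of the GR WT HFSC level, Jun would amount to 23.4 to 39.2 TPM in GR WT and 1.24 to 9.72 TPM in GR KO Treg libraries. Atf3 would amount to 16.2 to 27.2 against 0.860 to 6.76 TPM, and Fosl1 to 1.26 to 2.12 against 0.0668 to 0.525 TPM. For Fos the amounts were 42.6 to 71.5 against 2.26 to 17.7 TPM, beside GR WT and GR KO means of 697 and 543 TPM, and for Junb 18.8 to 31.6 against 0.998 to 7.84 TPM. GR WT replicate 3 had the highest keratinocyte level of the Treg libraries and the highest Fos, Fosb, Jun and Atf3. Among the GR KO libraries the highest keratinocyte level, 0.583% in replicate 3, stood beside the lowest Jun, 30.1 TPM. The 8 keratinocyte markers that were lower were Perp, Krt5, Krt14, Krt15, Krt17, Dmkn, Dsp and Trp63, and of the follicle markers Postn and Cd34, of the suprabasal markers Krtdap and Sbsn, and of the sebocyte markers Mgst1, Elovl3 and Plin2 were lower as well. Of 12 macrophage and monocyte markers tested, 11 had a negative log2 fold change, with a median of -1.22. By the limma test 4 (Cd14, Mrc1, Fcgr1 and Lyz2) were lower in GR KO, beside 1.31% of all genes. Lyz2, the lysozyme gene, was at 181 ± 47.2 TPM in GR WT (SD, n = 3) and 55.4 ± 31.0 TPM in GR KO (SD, n = 5). The mean log2(TPM + 1) of the 13 macrophage and monocyte markers was 3.52 to 4.39 in GR WT and 2.49 to 3.28 in GR KO libraries. Their summed TPM, 861 to 1073 in GR WT and 753 to 1111 in GR KO, was mostly Ccr2, at 691 ± 39.2 in GR WT and 804 ± 159 in GR KO. Neutrophil markers summed to 93.0 to 343 against 18.8 to 46.2 TPM, with S100a8 and S100a9 lower by the limma test. The part of these transcripts in the members' differences was not tested.

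**Figure D4:**
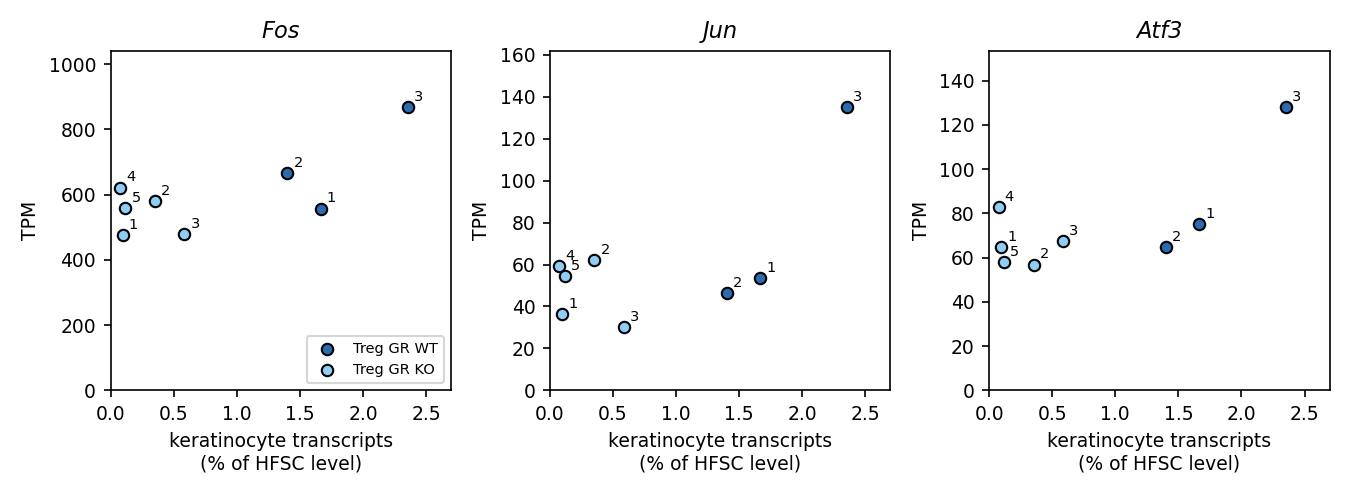
TPM of Fos, Jun and Atf3 (y axes from 0) against the keratinocyte transcript level of the same Treg library, as a percent of the GR WT HFSC level, with points numbered by replicate. GR WT replicate 3 is the highest on both axes in each panel (2.35%, with Fos at 867, Jun at 135 and Atf3 at 128 TPM), while the other GR WT points lie at TPM levels within the range of the GR KO points except for Fos in replicate 2 (666 TPM).

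The HFSC comparison asks which AP-1 genes differ in stem cells of mice whose Treg cells carry the floxed receptor. None of the 8 members tested passed at an adjusted p of 0.05 (limma with Benjamini-Hochberg over 12493 genes), where 0.176% of all genes did (0.144% higher and 0.032% lower in GR KO). Fosb, Fosl2, Jund and Atf3 (4 of 8) had an unadjusted p under 0.05, as did 16.6% of all genes. Limma's voom on recovered tags, which called 240 genes higher and 243 lower in GR KO HFSC, called 1 member, Atf3. All 8 fold changes were positive, with a median of 0.29 against -0.02 over all genes tested. In the same 4 members all GR KO libraries lay above all GR WT libraries, which held for 10.7% of all genes, and in 0 members did they lie below, which held for 12.8%.

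Atf3 had the largest log2 fold change of the 8 members tested in HFSC. It was at 1147, 1140 and 1186 TPM in GR WT and at 1898, 1892 and 1471 TPM in GR KO HFSC libraries. The GR WT libraries lay within a narrow band, and each GR KO library was above it, with replicate 3 the lowest of them. GR KO minus GR WT gave a log2 fold change of 0.59 (SE 0.12, 95% interval 0.31 to 0.87; limma with Benjamini-Hochberg adjustment, adjusted p = 0.0823). With voom on recovered tags its adjusted p was 0.0199, and with sample weights 0.0227. Over all the alternatives the adjusted p ranged from 0.0199 to 0.295.

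In the FOS class, Fosb was at 1114, 1105 and 1260.2 TPM in GR WT and at 1637, 1653 and 1332 TPM in GR KO HFSC libraries. The groups did not overlap, and GR KO replicate 3 was close to the highest GR WT library. This amounted to a log2 fold change of 0.41 (SE 0.12, 95% interval 0.13 to 0.68; limma with Benjamini-Hochberg adjustment, adjusted p = 0.157), and with sample weights the adjusted p was 0.0496, the lowest over the alternatives, where the highest was 0.431.

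Fosl2, less abundant than the early FOS genes in HFSC, was at 59.3, 79.8 and 71.2 TPM in GR WT and at 103, 100.1 and 85.6 TPM in GR KO libraries. The groups were separate, with GR KO replicate 3 nearest to the GR WT values. The log2 fold change was 0.46 (SE 0.14, 95% interval 0.14 to 0.77; limma with Benjamini-Hochberg adjustment, adjusted p = 0.161).

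Fos was at 2393, 3304 and 3420 TPM in GR WT and at 3792, 3832 and 3395 TPM in GR KO HFSC libraries. GR WT replicate 1, the library that stood apart, was far below all others, and GR KO replicate 3 fell below the highest GR WT library. GR KO minus GR WT gave a log2 fold change of 0.29 (SE 0.15, 95% interval -0.06 to 0.64; limma with Benjamini-Hochberg adjustment, adjusted p = 0.391), and it was 0.13 without GR WT replicate 1 and 0.08 under quantile scaling. Fosl1 was at 110, 79.0 and 81.1 TPM in GR WT and 101, 113 and 92.3 TPM in GR KO libraries, with overlap and a log2 fold change of 0.19 (SE 0.15; limma, Benjamini-Hochberg adjusted p = 0.559). Its fold change was 0.34 without GR WT replicate 1, and 0.11 without GR WT replicate 2.

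In the JUN class, Jund was at 521, 449 and 519 TPM in GR WT and at 581, 707 and 541 TPM in GR KO HFSC libraries. The groups did not overlap, though GR KO replicate 3 was close to the GR WT libraries. This amounted to a log2 fold change of 0.29 (SE 0.12, 95% interval 0.0033 to 0.58; limma with Benjamini-Hochberg adjustment, adjusted p = 0.295), and it was 0.18 without GR KO replicate 2. Jun was at 1831, 1599 and 1571 TPM in GR WT and at 1975, 1990 and 1589 TPM in GR KO libraries. GR KO replicate 3 lay among the GR WT values, and the log2 fold change was 0.15 (SE 0.13; limma, Benjamini-Hochberg adjusted p = 0.598), or 0.25 without that library, and 0.09 without GR KO replicate 2 or with voom.

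Junb was at 1346, 1372 and 1316 TPM in GR WT and at 1440, 1503 and 1189 TPM in GR KO HFSC libraries, so the GR WT values lay inside the GR KO range. Its log2 fold change was 0.03 (SE 0.11, 95% interval -0.23 to 0.29; limma with Benjamini-Hochberg adjustment, adjusted p = 0.928) and changed sign under quantile scaling and voom. Batf and Batf3 did not pass the filter. Batf held 2 tags in 1 GR WT and 4 tags in 1 GR KO library and 0 in the others, and Batf3 held 2, 6 and 2 tags in GR WT and 0 in each GR KO library. A count of 0 allows up to 3 tags, which came to 0.685 to 1.15 TPM for Batf and 0.871 to 1.46 TPM for Batf3 in HFSC libraries, for counting error only, so no fold is given. These limits take each tag as a separate count and would be higher if both mates of a pair were counted.

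For each of the 8 tested members, GR KO replicate 3 was the lowest of the 3 GR KO HFSC libraries. Leaving out any library can only keep or raise the number of members with all GR KO libraries above all GR WT libraries. These counts therefore cannot show that the number is stable. Without GR KO replicate 3 that number became 7 of 8 (14.3% of all genes), a choice made from the same values and no support for a difference. It was 4 of 8 without GR KO replicate 1 (15.6% of all genes) or GR KO replicate 2 (13.5%). Without GR WT replicate 1 it was 5 of 8 (13.1%). The summed family was 8521 to 9425 TPM in GR WT and 9695 to 11790 TPM in GR KO HFSC libraries, or 1.33 to 1.47% and 1.51 to 1.84% of all TPM. Atf3 took 12.5 to 13.5% of the family's TPM in GR WT and 15.2 to 16.5% in GR KO libraries, while the JUN class took 36.1 to 43.4% and 34.2 to 35.6%. Sebocyte markers differed with genotype in HFSC: they summed to 3665 to 5421 TPM in GR WT and 7657 to 9726 TPM in GR KO libraries, 9 of 10 had all GR KO libraries above all GR WT libraries (10.7% of all genes), and 1 (Plin2) passed the limma test (0.176% of all genes). Voom on recovered tags called 7 of the 10, where it called 240 of all genes higher and 243 lower in GR KO. None of the 10 sebocyte markers was at 0 in any HFSC library. HFSC markers summed to 19322 to 24235 TPM in GR WT and 14795 to 18306 TPM in GR KO libraries. Of 11 tested, 8 fold changes were negative and 3 positive, the limma test passed 0 and voom called 4. In 4 of the 11 all GR KO libraries lay below all GR WT libraries (12.8% of all genes). Keratinocyte markers summed to 23742 to 28784 against 18209 to 21492 TPM, with 8 of 10 negative, 2 positive and 0 past the limma test. The part of these marker genes in the members' differences was not tested.

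Genes outside the family that tissue handling also induces were set beside the members. Of 19 such genes, among them Ier3, Dusp1, Klf6 and Zfp36, 0 passed the limma test in Treg cells, with a median log2 fold change of -0.19, and 0 passed in HFSC, with a median of 0.14. An unadjusted p under 0.05 was reached by 3 of them in Treg cells (14.1% of all genes) and by 5 in HFSC (16.6% of all genes), and voom called 0 in Treg cells and 2 in HFSC, Ier3 and Dusp1. In Treg cells 1 of the 19, Zfp36, had all GR KO libraries below all GR WT libraries, beside 5.1% of all genes. Zfp36 was at 993 ± 109 TPM in GR KO and 1270 ± 174 TPM in GR WT Treg cells (log2 fold change -0.35, SE 0.12; limma, Benjamini-Hochberg adjusted p = 0.211). In HFSC, 5 of the 19 had all GR KO libraries above all GR WT libraries, beside 10.7% of all genes. Ier3, an early response gene, had the smallest p there, at 417 ± 59.4 TPM in GR KO and 267 ± 25.5 TPM in GR WT (SD, n = 3 each), a log2 fold change of 0.63 (SE 0.13; limma, Benjamini-Hochberg adjusted p = 0.0796). Dusp1, a phosphatase of MAP kinases, was at 626 ± 81.6 against 412 ± 60.8 TPM (log2 fold change 0.61, SE 0.14; limma, Benjamini-Hochberg adjusted p = 0.114). The summed level of the 19 was 10062 to 10581 TPM in GR WT and 10307 to 12622 TPM in GR KO HFSC libraries, and 9614 to 11079 against 8131 to 10004 TPM in Treg libraries. The part of handling in the members' values was not tested.

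Of 22 related zipper factors (ATF, CREB, MAF, NRF and C/EBP genes among them), 21 were tested in each cell type and 0 passed the limma test in either. Their median log2 fold change was -0.10 in Treg cells and 0.20 in HFSC, and in HFSC 9 of 21 had all GR KO libraries above all GR WT libraries, beside 10.7% of all genes. An unadjusted p under 0.05 was reached by 4 in Treg cells (14.1% of all genes) and by 7 in HFSC (16.6% of all genes), and voom called 0 in both. In Treg cells, Nfe2l2, which encodes the oxidative stress factor NRF2, was at 28.9 ± 6.30 TPM in GR KO (SD, n = 5) and 47.1 ± 3.86 TPM in GR WT (SD, n = 3), a log2 fold change of -0.71 (SE 0.18; limma, Benjamini-Hochberg adjusted p = 0.0889). Crem, a cAMP-responsive factor, was at 1028 ± 62.6 against 799 ± 89.4 TPM (log2 fold change 0.37; limma, Benjamini-Hochberg adjusted p = 0.103). In HFSC, the small MAF gene Maff was at 38.7 ± 4.66 TPM in GR KO and 25.3 ± 2.998 TPM in GR WT (log2 fold change 0.60; limma, Benjamini-Hochberg adjusted p = 0.116), and Cebpb at 337 ± 43.5 against 242 ± 18.3 TPM (log2 fold change 0.47; limma, Benjamini-Hochberg adjusted p = 0.123). Jdp2, the gene between Fos and Batf, was at 14.3 ± 3.46 TPM in GR KO and 17.5 ± 3.20 TPM in GR WT Treg cells.

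Partners that bind beside AP-1 at composite sites did not pass the limma test either. All 8 were tested in Treg cells, where 0 passed, voom called 0 and the median log2 fold change was -0.27. An unadjusted p under 0.05 was reached by 1 of the 8 (14.1% of all genes). Irf4, the partner of BATF with JUN proteins in T cells, was at 102 ± 19.2 TPM in GR KO and 128 ± 21.1 TPM in GR WT Treg cells (log2 fold change -0.32, SE 0.16; limma, Benjamini-Hochberg adjusted p = 0.384). Nfatc2, an antigen receptor responsive partner of FOS and JUN, was at 19.5 ± 4.31 against 27.8 ± 7.49 TPM (limma, Benjamini-Hochberg adjusted p = 0.342). In HFSC 5 were tested and 0 passed, with a median of -0.17. Of these 1, Nfatc1, had an unadjusted p under 0.05 (16.6% of all genes) and was called by voom. Nfatc1, known for holding follicle stem cells in rest, was at 68.5 ± 2.91 TPM in GR KO and 90.6 ± 7.66 TPM in GR WT HFSC (log2 fold change -0.40, SE 0.11; limma, Benjamini-Hochberg adjusted p = 0.136).

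Of 21 kinases and factors that act upstream of AP-1 (the MAP kinase cascade and the serum response factors), all were tested and 0 passed the limma test in each cell type, with medians of -0.01 in Treg cells and 0.06 in HFSC. In each cell type 2 had an unadjusted p under 0.05 (14.1% of all genes in Treg cells and 16.6% in HFSC), and voom called 0. Map2k4, a kinase above JNK, was at 25.5 ± 1.51 TPM in GR KO and 31.8 ± 0.767 TPM in GR WT Treg cells (log2 fold change -0.31, SE 0.11; limma, Benjamini-Hochberg adjusted p = 0.231). Mapk3, which encodes ERK1, was at 147 ± 4.69 TPM in GR KO and 174 ± 8.55 TPM in GR WT HFSC (log2 fold change -0.24, SE 0.09; limma, Benjamini-Hochberg adjusted p = 0.241).

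Among 20 AP-1 target genes, 13 were tested in Treg cells and 1, Plaur, fell in GR KO by the limma test, as did 1.31% of all genes. Plaur, which encodes the urokinase receptor, was at 2.37 ± 1.35 TPM in GR KO (SD, n = 5) and 10.8 ± 1.21 TPM in GR WT Treg cells (SD, n = 3), a log2 fold change of -1.87 (SE 0.28; limma, Benjamini-Hochberg adjusted p = 0.00734). Plaur is also a gene of myeloid cells, whose markers are given above, and their part in its difference was not tested. The median over the 13 was 0.03. In HFSC 11 targets were tested and 0 passed, with a median of 0.02. An unadjusted p under 0.05 was reached by 2 (16.6% of all genes), and voom called 1, Ccnd1. Ccnd1, the cyclin D1 gene, was at 65.2 ± 12.6 TPM in GR KO and 94.98 ± 22.0 TPM in GR WT HFSC (log2 fold change -0.53; limma, Benjamini-Hochberg adjusted p = 0.223).

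Genes linked to BATF in tissue Treg cells showed 0 of 14 past the limma test in Treg cells, with a median log2 fold change of -0.11. An unadjusted p under 0.05 was reached by 3 (14.1% of all genes), and voom called 0. Of the 14, 10 had a negative and 4 a positive fold change. Tigit, with the smallest p, was at 592 ± 51.1 TPM in GR KO and 491 ± 83.2 TPM in GR WT. Its log2 fold change was 0.28 (limma with Benjamini-Hochberg adjustment, adjusted p = 0.321). Tnfrsf4, which encodes OX40, was at 1651 ± 150.1 TPM in GR KO and 1958 ± 178 TPM in GR WT. Its log2 fold change was -0.25 (limma with Benjamini-Hochberg adjustment, adjusted p = 0.322). Gata3, a factor of type 2 and tissue Treg cells, was at 103 ± 19.7 against 131 ± 15.6 TPM (log2 fold change -0.37; limma, Benjamini-Hochberg adjusted p = 0.352). In HFSC 5 of the 14 were tested, 0 passed and the median was 0.27. An unadjusted p under 0.05 was reached by 3 (16.6% of all genes), and voom called 1 (Rora).

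To see which genes varied most like 2 of the members, group means were subtracted from log2(TPM + 1) and each gene's remaining variation over the 14 libraries was correlated with that of Fos and of Batf, among 5611 genes. The values are a description: libraries share depth, sorting and any variation in quality, and no test was made. Fos was most like Aldh3a2 (Pearson r = 0.97, Spearman rho = 0.98), Tgfbr2 (0.95 and 0.94), Shc1 (0.94 and 0.91), Akap11 (0.93 and 0.89) and Arnt (0.93 and 0.89). Leaving out the 2 libraries farthest from the median left r at 0.95, 0.91, 0.90, 0.88 and 0.88. Fosb was the family member most like Fos, at r = 0.78, and 251st of the genes searched; without the 2 farthest libraries Jun came ahead of it (r = 0.83 against 0.80). Those 2 libraries were GR WT replicate 1 of the HFSC and GR WT replicate 1 of the Treg cells. Jun followed Fos in the Treg libraries (r = 0.89) and not in all 6 HFSC libraries (r = -0.25). There GR WT replicate 1, the library that stood apart, had the lowest Fos (2393 TPM) and the highest Jun (1831 TPM) of its group. The HFSC value without that library was not computed, so no difference between the cell types is drawn from it. Batf was most like Rfk (r = 0.90, and 0.78 without the 2 farthest libraries), and its 6 HFSC values near 0 limit what this can show.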

How the data were processed

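RNA of 14 sorted mouse samples was sequenced from mRNA libraries of a kit that marks the strand, per the labels' protocols. FastQC, Trim Galore, STAR, HOMER and the build mm10 appear in the submitters' processing notes, without versions, settings or the handling of strand. The authors deposited TPM values (abundance scaled by transcript length) for 24537 genes, in 1 table per cell type, with rows that sum, per library, to between 649917 and 668742 TPM in Treg cells and between 639752 and 645251 TPM in HFSC. Column names of the HFSC table begin with letters of unknown meaning, so its columns were tied to samples by cell type, genotype and number.

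TPM multiplied by transcript length fell on whole multiples of 1 tag in low rows (within 0.1 tag), which gave the depths and the tags used in an alternative. Most recovered tag numbers under 500 were even (63.0 to 70.9%), so both mates of a pair may have been counted.

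Each table was tested apart with limma 3.58.1 under R 4.3.3. Values entered as log2(TPM + 1), only genes averaging 1 TPM or more were kept, the variance prior followed the mean level, and tests were 2-sided with Benjamini-Hochberg adjustment at 0.05. On simulated data, 95.5% of 2-fold changes and 37.3% of 1.5-fold changes were recovered in the Treg design over 11539 genes, and 92.5% and 19.4% in the HFSC design over 12475 genes. The simulation also called 13 unchanged genes in the Treg and 10 in the HFSC design. The spread set there (CV, the SD as a percent of the mean) was 12.7% in the Treg and 12.1% in the HFSC design. In GR WT Treg libraries the CV of the tested members ran from 9.43% for Junb to 62.9% for Jun, with Fosb at 45.5%. Recovery at each member's own spread was not tested. Alternatives were other pseudocounts, filters, scalings and priors, voom on recovered tags, sample weights, a replicate block, and leaving out each library. The members and the 16 gene lists (204 entries, 4 of them without a row) were chosen with earlier results of these data known. All members are named, and of each other list the genes past the threshold and up to 4 with the smallest p. For likeness, the 5 genes with the highest correlation with Fos and with Batf were taken among those averaging 10 TPM or more in both tables. Promoters came from RefSeq (GRCm38.p6), and overlaps from GENCODE vM21. The 95% intervals come from the spread between libraries in limma, and limits for 0 counts cover counting error only.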

Additional observations from a re-analysis of the deposited data

Results flagged for a closer look

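Within the 5 GR KO Treg libraries, 2 values stood far from the rest of their group. Junb was at 2747 TPM in replicate 2, where the next library was at 2287 and the lowest at 2155 TPM. Batf was at 620 TPM in replicate 1, where the next library was at 442 and the lowest at 384 TPM. Of 10 members examined in this group these were the 2 that stood out, and chance alone flags about 1 in 20 such groups.

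For 3 members every GR KO library lay on one side of the GR WT mean in Treg cells and on the other side in HFSC. The share of all genes with this pattern was not counted, so the 3 cannot be called more than usual. The log2 fold changes were -0.34 in Treg cells and 0.29 in HFSC for Fos, -0.44 and 0.41 for Fosb, and -0.38 and 0.59 for Atf3. The difference between the cell types was not tested, since the tables were made separately. In Treg cells the pattern rests on GR WT replicate 3, a check added after the data were seen. Without it the fold changes were -0.17 for Fos, -0.10 for Fosb and -0.09 for Atf3, and 1, 2 and 1 of the 5 GR KO libraries lay above the GR WT mean.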

How the results depend on the processing

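Members kept their sign and their side of the threshold in 159 of 161 values over 18 alternatives in Treg cells and in 121 of 128 values over 16 alternatives in HFSC. The exceptions in sign were Fosl1 in Treg cells, at 0.10 under quantile scaling and from -0.22 to 0.011 when single libraries were left out, and Junb in HFSC, at -0.015 under quantile scaling, -0.027 with voom on recovered tags and from -0.039 to 0.13 with single libraries left out. No member was called in Treg cells under any alternative. In HFSC, 1 member (Atf3, adjusted p = 0.0199 by limma's voom) and, with limma's sample weights, 2 members (Atf3, 0.0227, and Fosb, 0.0496) were called, against 0 in the unweighted test. Over all genes, 175 were called in Treg cells, 84 to 186 with a library left out (84 without GR WT replicate 3, 107 without GR WT replicate 1) and 78 with the replicate block. In HFSC 22 were called, with 2 without a filter, 48 at a mean of at least 5 TPM, 69 with median ratio scaling, 58 with quantile scaling, 51 with a robust prior, 483 with voom, 584 with sample weights, 66 with the replicate block, and 0 to 5 with any 1 library left out. The share of HFSC calls that were higher in GR KO was 81.8%, and 49.7% with voom. The number of members with all GR KO above all GR WT libraries went from 4 to 7 without HFSC GR KO replicate 3. Leaving out any library can only keep or raise such a number, whether above or below, so it could not fall. In Treg cells 3 members lay wholly below without GR WT replicate 1, where 15.7% of all genes did. The causes were not tested. Same-numbered libraries did not deviate together (r from -0.12 to 0.17 in Treg cells and from -0.042 to 0.062 in HFSC). No pairing by number was seen in these values, which cannot exclude that samples were paired. The replicate block changed no member's call. Of simulated 1.5-fold changes, 37.3% were recovered in the Treg and 19.4% in the HFSC design, and smaller changes were not simulated. Fosl1 in Treg cells has no value at a mean of at least 5 TPM.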
